A study of Rattus norvegicus with 36 samples.

Results

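Atp7b (ENSRNOG00000012878) is 1 of the 29516 genes listed for each library, and it was chosen for its values: it had the largest night rise shared by the Control and Sham groups of rat pineal glands. Its Control and Sham values are therefore given as a description, and a test of Atp7b is given only where neither group took part. Glands were pools from Sprague-Dawley rats. The in vivo experiment had 4 surgical groups, each sampled at mid-day (ZT7) and at midnight (ZT19) at 40 days of age with 3 libraries per time. Control animals had no surgery, Sham animals a sham operation, DCN animals bilateral decentralization of the superior cervical ganglia (SCG), which cuts the input to the ganglia and leaves them in place, and SCGX animals bilateral removal of the ganglia, with all 3 operations on postnatal day 5. In the organ culture experiment, glands came from female rats older than the in vivo rats, which were male and female. The cultured glands were kept for 48 h and then left Untreated or given 1 µM norepinephrine (NE) or 500 µM dibutyryl cyclic AMP (DBcAMP) for 6 h, with 3 libraries per condition. A further experiment had 1 library each of pineal day, pineal night and mixed tissue RNA from other organs, the mixed tissue taken at ZT7. The libraries held between 12556861 and 18524435 read-pairs on genes in the first 2 experiments and up to 38574186 in the last.

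Atp7b encodes a copper-transporting P-type ATPase, the gene altered in Wilson disease, which moves copper into the secretory pathway and out of cells such as hepatocytes. In the pineal gland and retina the same locus is known to give a shorter product, the pineal night-specific ATPase (PINA), which starts inside the gene and lacks the N-terminal copper-binding part. At night the sympathetic nerves from the SCG release norepinephrine in the gland, adrenergic receptors raise cyclic AMP in pinealocytes, and many transcripts rise with it. The RefSeq table lists PINA among the synonyms of Atp7b. Read-pairs were counted over all exons of the gene, 5577 bases in all, so PINA and full-length Atp7b transcripts were not separated in any value below.

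The annotated start of Atp7b is shown as RefSeq places it, and it is the only sequence of the locus used here. RefSeq lists 3 transcripts of the gene, and which of them starts here was not examined. It spans 250 bases before to 50 bases after the start, at chr16:76654475-76654774 on the + strand in RefSeq's GRCr8 assembly, and is printed 5′ to 3′ with the single motif match in capitals.
Atp7b annotated start: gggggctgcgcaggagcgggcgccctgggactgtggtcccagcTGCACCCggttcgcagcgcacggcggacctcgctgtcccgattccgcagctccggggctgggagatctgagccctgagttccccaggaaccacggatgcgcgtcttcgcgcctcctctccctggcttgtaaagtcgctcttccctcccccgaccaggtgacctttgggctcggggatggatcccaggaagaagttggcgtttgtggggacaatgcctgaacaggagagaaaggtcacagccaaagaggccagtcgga
The capitals mark TGCACCC, a match to the metal response element core TGCACNC that begins 207 bases before the start, and 12.2% of the 33469 promoters of the same length hold a match to that core. No match on either strand was present in this window to the cyclic AMP response element TGACGTCA (in 1.83% of promoters), to its core TGACG, which lies inside it (21.2%), to the CRX site TAATCC (7.17%), to the E-box CACGTG (6.42%) or to the other metal response element core TGCGCNC (14.1%). The window held 65.3% G and C, against a median of 51.7% over all these promoters. The internal start of PINA lies outside this window and was not analysed here.

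Of the 35 pineal libraries, 2 stood apart in genes that were over 8-fold higher in mixed tissue than in either single pineal library. These 2194 genes took 1.02% of the read-pairs of DCN day replicate 1 and 1.33% of those of Sham night replicate 3, against 0.216% to 0.566% in the other 33. Within these 33, the culture libraries lay highest, at 0.461% to 0.566%, and the rest lay at 0.216% to 0.432%. Results of Atp7b that include DCN day replicate 1 or Sham night replicate 3 are given below with and without that library. The files list Ensembl identifiers only, and the tissue was not checked against named marker genes. The surgical groups compare whole glands, in which a smaller share of cells expressing Atp7b and less Atp7b RNA per cell cannot be told apart.

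In the in vivo glands of unoperated and sham-operated rats, Atp7b went from a weakly expressed gene at mid-day to an abundant one at midnight. The Control day libraries held 1.551, 1.495 and 1.372 RPKM (read-pairs scaled by exon length and by the total on genes), from 132, 129 and 128 read-pairs. The Control night libraries held 183, 236 and 268 RPKM, from 16340, 21663 and 23792 read-pairs. The ratio of a Control night library to a Control day library lay between 118 and 196, with no overlap of the groups. The Sham day libraries held 1.61, 0.854 and 0.843 RPKM. The Sham night libraries held 275, 240 and 231 RPKM. Here too night and day libraries did not overlap, and Sham day replicate 1 lay close to the Control day level while the other Sham day libraries lay below it. By rank of RPKM within a library, Atp7b stood between places 240 and 415 at night and between places 12903 and 14492 by day in these groups.

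The log2 fold change between night and day was 7.45 (SE 0.20) in Control and 7.88 (SE 0.32) in Sham, and 8.04 (SE 0.30) in Sham without Sham night replicate 3. These values chose the gene. The next gene by the smaller of its 2 fold changes, ENSRNOG00000011182, lay close behind, at 7.71 in Control and 7.45 in Sham. It was more abundant than Atp7b, with a mean of 1267 RPKM at night and 6.83 RPKM by day in Control. The smaller fold changes of these 2 genes thus differed by less than their standard errors. The single pineal libraries, which took no part in the choice, held 2.00 RPKM (322 read-pairs) by day and 255 RPKM (52190 read-pairs) at night. Scaled by the median of ratios, their night/day ratio was 149, with an exact 95% conditional interval of 133 to 167 that covers counting error only. Of 13382 genes with a mean normalized count over 30 in these libraries, 2 had a higher ratio.

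**Figure D1:**
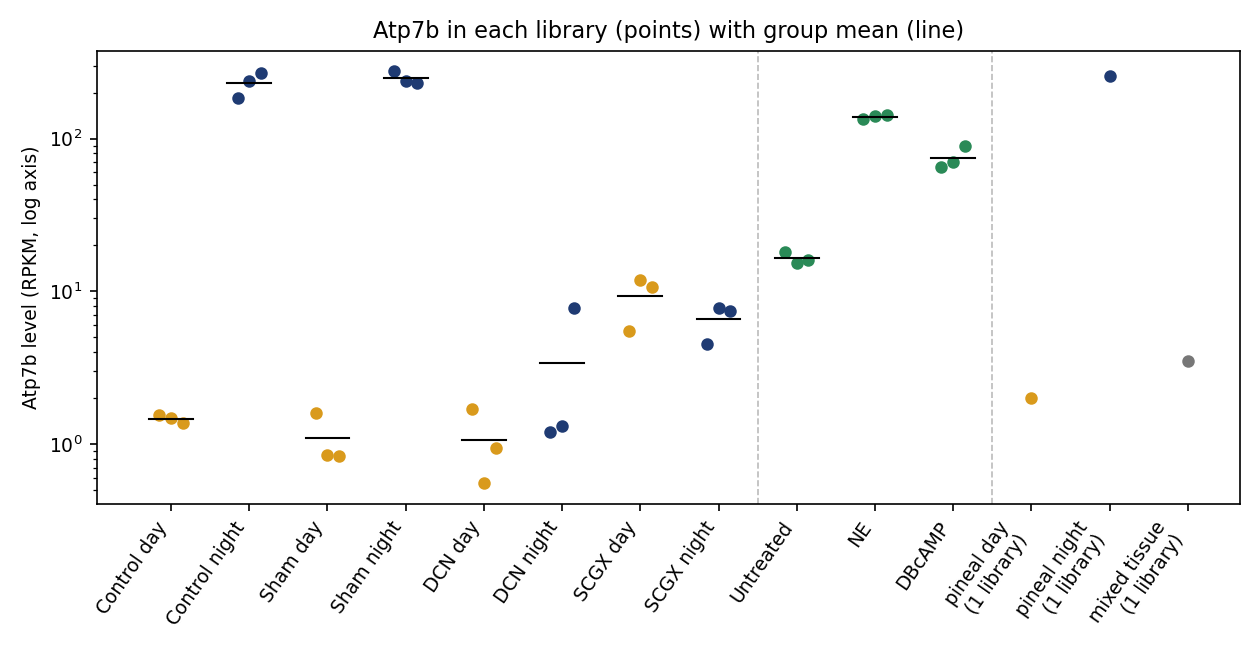
Atp7b level in RPKM (log axis) in each of the 36 libraries, with points for libraries, lines for means of 3 and single points for the 1-library samples. The Control and Sham night libraries lie above 180 RPKM, the NE and DBcAMP libraries between 64.7 and 143, and DCN night replicate 3 at 7.73 lies apart from the other DCN night libraries.

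The night level was not seen in glands whose SCG had been decentralized or removed. At midnight the DCN libraries held 1.201, 1.311 and 7.731 RPKM, from 96, 111 and 656 read-pairs. The SCGX libraries at midnight held 4.50, 7.85 and 7.39 RPKM. Neither group overlapped the Sham night libraries, whose lowest value was 29.9 times the highest DCN night value and 29.5 times the highest SCGX night value. The log2 difference from Sham at midnight was -6.29 (SE 0.83) for DCN and -5.34 (SE 0.25) for SCGX, given with no test because Sham chose the gene. Without Sham night replicate 3 they were -6.42 (SE 0.84) and -5.5 (SE 0.24), and without DCN night replicate 3 the DCN value was -7.76 (SE 0.19).

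At mid-day DCN and SCGX glands parted. The DCN day libraries held 1.69, 0.558 and 0.951 RPKM, from 150, 46 and 82 read-pairs, a range that overlapped Sham day. The SCGX day libraries held 5.49, 11.8 and 10.7 RPKM, from 482, 922 and 832 read-pairs. All 3 lay above every Control, Sham and DCN day library. The log2 difference from Sham at mid-day was -0.10 (SE 0.44) for DCN, or -0.59 without DCN day replicate 1, 0.21 without DCN day replicate 2 and 0.28 without Sham day replicate 1, and 3.09 (SE 0.35) for SCGX. The highest DCN day value was that of DCN day replicate 1, the library with 1.02% of read-pairs on mixed-tissue genes. The part of those genes in its Atp7b value was not tested.

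SCGX and DCN glands could be compared directly, since neither chose the gene. By day, Atp7b was 9.14-fold higher in SCGX than in DCN glands (log2 fold change 3.19, SE 0.42, 95% interval 2.21 to 4.18), higher in 3 of 3 libraries. The adjusted p of 0.0294 from edgeR's quasi-likelihood test missed the threshold of 0.001 used throughout. In this comparison edgeR placed 0% of 15892 genes past the threshold, against 3158 genes with an unadjusted p under 0.05. DESeq2's Wald test called 220 of 15789 genes (1.39%), Atp7b among them with an adjusted p of 1.89e-06. Only 4 genes had a larger log2 fold change than Atp7b in the edgeR fit. Without DCN day replicate 1 the value was 3.69 (SE 0.39) with edgeR's adjusted p of 0.00762. The 2 tools thus put the same difference on opposite sides of the threshold.

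At midnight the difference between SCGX and DCN was 0.94 on the log2 scale (SE 0.66, 95% interval -0.59 to 2.47, edgeR adjusted p = 1), with 0% of 15570 genes called, 606 genes at an unadjusted p under 0.05 and 4 genes called by DESeq2. This value rested on DCN night replicate 3. Without that library, singled out after its value was seen, the difference was 2.41 (SE 0.26) with edgeR's adjusted p of 0.0647.

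**Figure D2:**
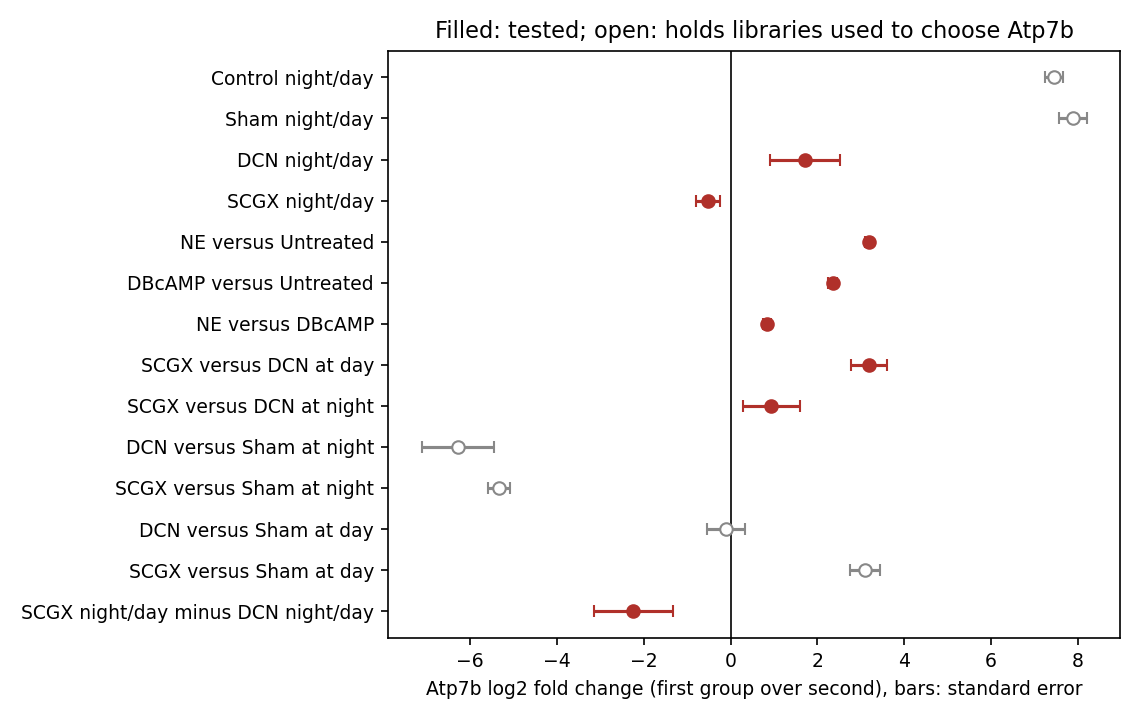
Log2 fold change of Atp7b in each comparison with its standard error, filled where the difference was tested and open where Control or Sham libraries, which chose the gene, took part. The night/day values of 7.45 in Control and 7.88 in Sham stand beside 1.71 in DCN and -0.53 in SCGX.

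The night/day difference of Atp7b did not pass the test in DCN or in SCGX glands. In DCN the log2 fold change was 1.71 (SE 0.80, 95% interval -0.17 to 3.59) with an adjusted p of 0.562 in edgeR, and 18 genes had a larger value. The estimate was 3.28-fold, with an interval from 0.889 to 12.1. At this threshold 0% of 15924 genes were called in DCN, 1433 genes had an unadjusted p under 0.05, and DESeq2 called 27. Without DCN night replicate 3 the value was 0.25 (SE 0.45, edgeR adjusted p = 0.892), and without DCN day replicate 1 it was 2.21 (SE 0.93). The lowest DCN night library lay below the highest DCN day library. In SCGX the log2 fold change was -0.53 (SE 0.28, 95% interval -1.16 to 0.10) with an adjusted p of 0.361 in edgeR, where 0.0193% of 15545 genes were called, 2800 had an unadjusted p under 0.05 and DESeq2 called 174. SCGX night and day libraries overlapped, and the value was negative where those of intact glands were positive. The night/day value in SCGX minus that in DCN was -2.25 (SE 0.91, 95% interval -4.24 to -0.25, edgeR unadjusted p = 0.0305, adjusted p = 0.433). For this difference 0% of 15768 genes were called, 1675 had an unadjusted p under 0.05 and DESeq2 called 2. The value was -0.78 (SE 0.58, edgeR adjusted p = 0.705) without DCN night replicate 3 and -2.74 (SE 0.99, edgeR adjusted p = 0.4) without DCN day replicate 1. The interval excluded 0, but the adjusted p missed the threshold, so a difference in rhythm between the 2 operations was not shown.

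DCN night replicate 3 was examined against its replicates. On the log2 CPM scale (counts relative to library total, after TMM scaling), its Atp7b level was 2.63 above the mean of DCN night replicates 1 and 2. Only 6 of 15839 genes lay further above that mean. To see whether night genes as a group were raised in it, a set of 146 genes was used that were over 4-fold higher at night with an adjusted p under 0.001 in both Control and Sham, which is 0.945% of the 15445 genes tested in both. Atp7b is in the set by its choice, so only the others are described. Without Sham night replicate 3 the set held 168 genes (1.09%), 144 of them shared. The other 145 had a median difference of 0.15 in that library, with 98 above 0 and none as high as Atp7b, beside a median of 0.01 over all genes. With the larger set the median of the others was 0.13, again with none as high as Atp7b. By the same measure for the 145 genes, replicate 1 had a median of 0.07 with 85 above 0. Replicate 2 had a median of -0.22 with 27 above 0. Each replicate was set against the mean of the others, so these differences depend on one another. They cannot separate a raised replicate 3 from a low replicate 2. Replicate 3 was also singled out for its Atp7b value, so few genes could lie as high. Genes enriched in mixed tissue took 0.300% of the read-pairs of DCN night replicate 3, within the range of the libraries that did not stand apart.

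The same 145 genes gave Atp7b a place among night genes in the groups that chose neither. On a log2 scale set for each gene to 0 at its Control day mean and 1 at its Control night mean, Atp7b stood at -0.092 ± 0.106 (SD, n = 3) in DCN day, where the medians of the other night genes averaged 0.133 ± 0.023. In DCN night it stood at 0.079 ± 0.205 against 0.227 ± 0.062, and replicates 1 and 2 were both below 0. In SCGX day it stood at 0.346 ± 0.082 against 0.365 ± 0.043, and in SCGX night at 0.278 ± 0.059 against 0.302 ± 0.003. Atp7b thus lay below the Control day mean in 4 of 6 DCN libraries, at 0.013 in DCN day replicate 1 and at 0.316 in DCN night replicate 3. Sham day replicates 2 and 3 also lay below that mean, at -0.104 and -0.111, so this was not particular to DCN glands. In SCGX glands the group means of Atp7b differed from those of the other night genes by less than the SD of its libraries. The SDs of the other night genes are those of library medians, and the genes themselves spread more widely. Their interquartile range in DCN day replicate 1, -0.052 to 0.262, held Atp7b. In DCN day replicates 2 and 3 it lay above Atp7b. Both ends of the scale are Control means, which took part in choosing Atp7b. Without DCN day replicate 1, and with the night genes called without Sham night replicate 3, the means were -0.144 against 0.115 in DCN day and 0.346 against 0.349 in SCGX day. For the difference between SCGX and DCN by day, the median log2 fold change of 144 other night genes was 0.53 and 2 of them exceeded Atp7b, beside a median of -0.02 over all genes. Without the libraries that stood apart, the median was 0.51 over 165 other night genes and 1 of them exceeded Atp7b.

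**Figure D3:**
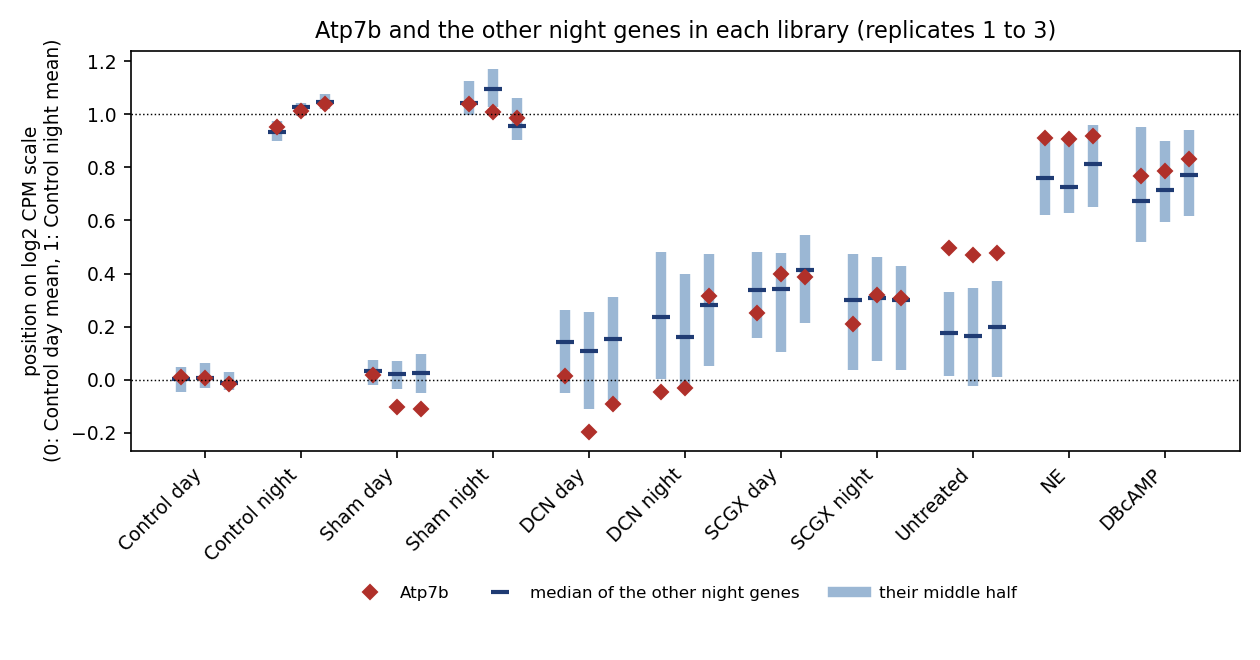
Position of Atp7b (red diamonds) in each library on a log2 scale from 0 (Control day mean) to 1 (Control night mean), with the median (dash) and interquartile range (bar) of the other 145 night genes. Untreated culture libraries hold Atp7b at 0.468 to 0.495, above the interquartile range of the other night genes.

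In organ culture, the Untreated libraries held 18.0, 15.3 and 16.0 RPKM, a mean of 16.4 ± 1.40 (SD, n = 3). This was 11.2 times the Control day mean and lay above every in vivo day library and every DCN and SCGX library. Culture glands came from older, female rats and a separate library pool, whereas the in vivo rats were male and female. The culture, the age and sex of the animals and the sequencing run therefore cannot be told apart, and no test was made. On the scale of the night genes Atp7b stood at 0.480 ± 0.014 in Untreated glands, where the medians of the other night genes averaged 0.179 ± 0.017, and no more than 15 of 145 of them stood higher in any Untreated library (19 of 167 with the larger set).

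NE raised Atp7b. The NE libraries held 134, 140 and 143 RPKM, all above every Untreated library, with an SD of 3.14% of their mean. The increase was 9.07-fold (log2 fold change 3.18, SE 0.08, 95% interval 3.02 to 3.35, edgeR adjusted p = 1.5e-13), higher in 3 of 3 libraries. In this comparison 11.2% of 15201 genes were called, 6.74% of genes as higher with NE, and 36 genes had a larger log2 fold change than Atp7b.

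DBcAMP, an analog of cyclic AMP that enters cells and bypasses the receptor, raised Atp7b as well. The DBcAMP libraries held 64.7, 70.1 and 89.7 RPKM, again all above every Untreated library. The increase was 5.09-fold (log2 fold change 2.35, SE 0.11, 95% interval 2.11 to 2.59, edgeR adjusted p = 5e-09). Here 16.6% of 15171 genes were called, 10.1% of genes as higher with DBcAMP, and 162 genes had a larger log2 fold change. Both comparisons used the same Untreated libraries.

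NE and DBcAMP libraries could be set against each other directly, at the single dose of each. Atp7b was 1.79-fold higher with NE (log2 fold change 0.84, SE 0.10, 95% interval 0.61 to 1.06, edgeR adjusted p = 0.000392), and the ranges of the 3 libraries of each did not overlap. Between NE and DBcAMP 1.06% of 15017 genes were called and 0.12% were called higher with NE, which is 18 genes with Atp7b among them. The call did not hold in every smaller set of libraries: edgeR's adjusted p rose to between 0.00153 and 0.00341 without any 1 of the NE libraries or of DBcAMP replicates 1 and 2, and fell to 2.26e-05 without DBcAMP replicate 3, the highest of its group. The doses of the 2 agents differed, and no dose series was given.

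Among the other night genes in culture, 144 were tested. Their median log2 fold change was 1.64 with NE and 1.54 with DBcAMP, beside medians of -0.02 and -0.01 over all genes. Of these 144, 135 and 128 were called higher, against 6.74% and 10.1% of all genes. Atp7b was 19th of 145 night genes, itself included, by its log2 fold change with NE and 41st with DBcAMP. For NE against DBcAMP the median of the others was 0.11, and 7 exceeded Atp7b. Of the others 4 were called higher and 5 lower, against 18 higher and 141 lower of all 15017 genes. With the night genes called without Sham night replicate 3, the medians over 165 others were 1.61 and 1.49 and Atp7b was 21st and 47th. These are places in a list that was itself chosen on Control and Sham, and they carry no test. Atp7b was also chosen for a wide night range, 7.45 in Control against a median of 2.98 for the other 145. On the scale of that range, Atp7b went from 0.480 in Untreated to 0.913 with NE and 0.794 with DBcAMP. The medians of the other night genes averaged 0.179, 0.766 and 0.720, so by their medians they gained more of their range than Atp7b did. The gains of single genes were not compared. In every NE and DBcAMP library Atp7b lay within the interquartile range of the other night genes.

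**Figure D4:**
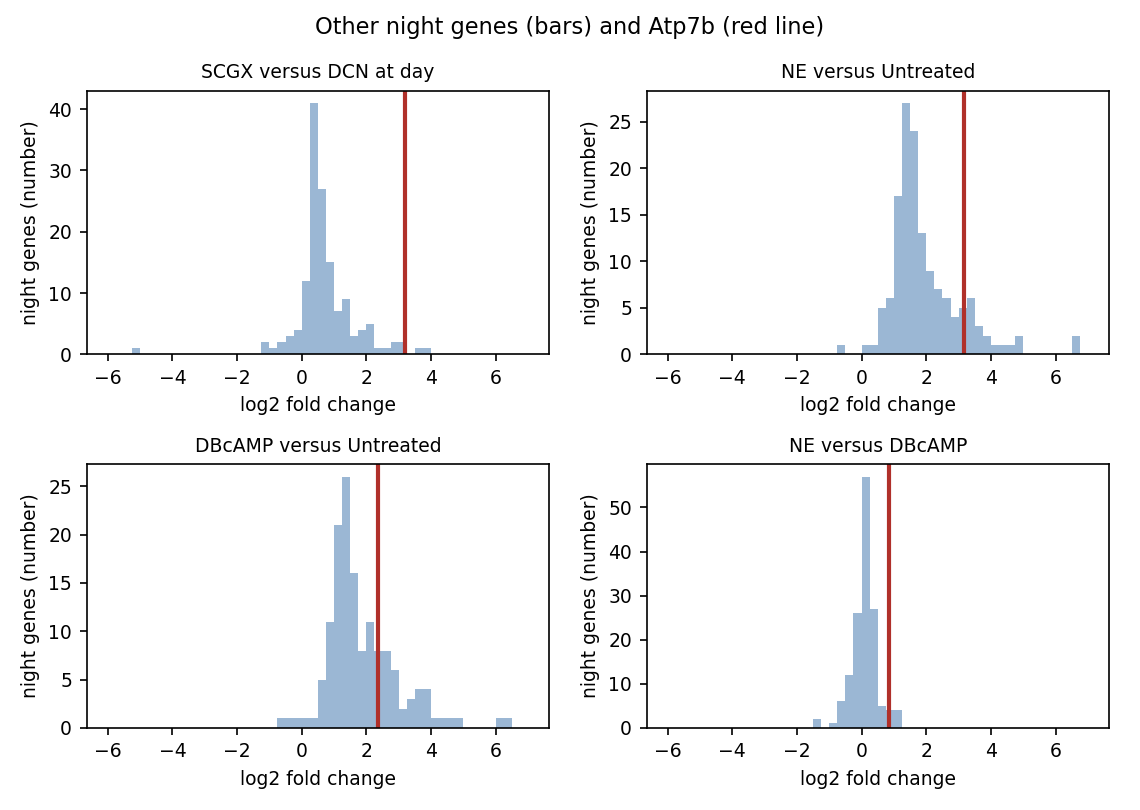
Number of the other 144 night genes by log2 fold change in 4 comparisons that used neither Control nor Sham, with Atp7b as a red line. Atp7b lies at 3.19, 3.18, 2.35 and 0.84 in SCGX versus DCN at day, NE versus Untreated, DBcAMP versus Untreated and NE versus DBcAMP, above the medians of 0.53, 1.64, 1.54 and 0.11. It was chosen for a wide night range, 7.45 in Control against a median of 2.98 for the other night genes.

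Stimulated glands in culture held less Atp7b than night glands in vivo. Between these experiments the culture, the animals and the sequencing run cannot be told apart, and no test was made. The Control and Sham night levels also took part in choosing the gene. The mean Control night level was 1.65 times the NE mean and 3.06 times the DBcAMP mean, and the lowest Control night library lay above the highest NE library. Ordered by group mean, Sham night (249 ± 23.4 RPKM, SD, n = 3) was followed by Control night (229 ± 43.2), NE (139 ± 4.36), DBcAMP (74.8 ± 13.1), Untreated (16.4 ± 1.40), SCGX day (9.33 ± 3.37), SCGX night (6.58 ± 1.81), DCN night (3.41 ± 3.74), Control day (1.47 ± 0.0916), Sham day (1.10 ± 0.440) and DCN day (1.07 ± 0.576). Neighbours in this order overlapped between Sham night and Control night, between SCGX day and SCGX night, between SCGX night and DCN night, and from DCN night down to DCN day. From Control night to NE, NE to DBcAMP, DBcAMP to Untreated and Untreated to SCGX day, the ranges of the libraries did not overlap.

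Mixed tissue, a pool of RNA from other organs that included liver, kidney and retina, was taken at ZT7 only. It held 3.48 RPKM (749 read-pairs). The pineal day library lay below it, at a ratio of 0.578 (exact 95% interval 0.505 to 0.659), and the pineal night library far above it, at a ratio of 85.2 (79.2 to 91.7). With 1 library each there is no replicate check, and the intervals cover counting error only. Of 15494 genes with a mean normalized count over 30, 28 had a higher ratio of pineal night to mixed tissue, whereas 10758 of 15515 had a higher ratio of pineal day to mixed tissue. Relative to mid-day mixed tissue, Atp7b was therefore enriched in the pineal night library and not in the pineal day library. No mixed tissue from midnight was available for the night comparison.

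The genes most like Atp7b were found by Pearson's r of log2 CPM over the 33 replicated libraries, in vivo and in vitro, with each experiment centred on its own mean. Of 15838 genes compared, 242 had r above 0.9 and the median was -0.061. The 10 highest lay between 0.953 and 0.978, and 5 of these 10 were among the night genes defined above. The most like was ENSRNOG00000004589, with r = 0.978 (0.977 over the 24 in vivo and 0.991 over the 9 in vitro libraries). It went from a mean of 22.2 RPKM at Control day to 186 RPKM at Control night and from 15.0 to 37.6 RPKM with NE. The most opposite was ENSRNOG00000001687, with r = -0.969, which went from 21.9 RPKM at Control day to 4.15 RPKM at Control night and from 17.4 to 9.70 RPKM with NE. Without DCN day replicate 1 and Sham night replicate 3 these values were 0.975 and -0.975, and 8 of the 10 genes were shared. They are descriptions, because the libraries share conditions and several of them chose Atp7b.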

How the data were processed

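RNA-seq of rat pineal glands was used: 24 in vivo libraries, 9 from organ culture and 3 single libraries, grouped by their labels. The authors aligned strand-specific reads with STAR 2.3.1y to rn4 with Ensembl annotation, and deposited per library the read-pair counts per gene, with no normalization. The authors also deposited RPKM values, equal to counts divided by exon length and by the total on genes. Levels are given as RPKM. Counts were tested with edgeR 4.0.16 (R 4.3.3; TMM, quasi-likelihood, Benjamini-Hochberg over all genes whose normalized counts averaged 5 or more), with DESeq2 1.42.0 as an alternative. A call was an adjusted p under 0.001, the threshold of the study. The fits were tried on simulated counts for NE versus Untreated and SCGX versus DCN at day only, with the same dispersion for all genes. That setting does not bear on where edgeR and DESeq2 differed. The labels give 3 biological replicates per condition, and the methods describe each as a pool of glands, so p-values measure the spread between pools. None of 33 replicate pairs held identical counts. Other alternatives were 2 scalings, 2 filters, a joint fit, a replicate block, each library left out, and a bias-adjusted fit and night gene and likeness lists without 2 libraries, chosen after seeing the data.

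Atp7b and the lists were chosen with earlier results of these data known. The genes to name were Atp7b, the 10 genes most like it, and copper, P-type ATPase, pineal regulator and neighbouring genes by symbol. The lists of these and the cell type markers were not analysed here, because the tables used here pair no Ensembl identifiers with symbols (0 of 47357 genes), so identifiers other than that of Atp7b are printed without names and 1 of the 10 is shown. Promoter sequence is from RefSeq (GRCr8), and its motifs were searched on both strands. Its coordinates are not those of rn4. Pairs of libraries with the same replicate number did not deviate together.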

Additional observations from a re-analysis of the deposited data

How the results depend on the processing

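The log2 fold change of Atp7b kept its direction in each comparison under each alternative, except that DCN versus Sham at day, -0.10, was 0.28 without Sham day replicate 1 and 0.21 without DCN day replicate 2. NE versus Untreated (3.08 to 3.23) and DBcAMP versus Untreated (2.19 to 2.45) stayed past the threshold in all alternatives. For NE versus DBcAMP, leaving out 1 library gave 0.75 to 0.99 with edgeR's adjusted p between 2.26e-05 and 0.00341. Same-numbered libraries showed no shared deviation (r from -0.22 to 0.15 over 13 pairs of groups, none with all 3 above 0.1), so the replicate block shares only a number. With it NE versus DBcAMP was 0.85 (edgeR adjusted p = 0.00104), SCGX night/day -0.51 (0.0479) and SCGX versus DCN at day 3.17 (0.0504). SCGX versus DCN at day was 3.20 with DESeq2 (adjusted p = 1.89e-06) and 2.88 to 3.69 with 1 library left out (edgeR, 0.00762 to 0.175). DCN night/day ranged from 0.25 to 2.21 with 1 library left out, the lowest without DCN night replicate 3. Pineal night over mixed tissue was 73.1 by library size. Of the 10 genes most like Atp7b, 5 remained with in vivo libraries only and 1 with in vitro libraries only. The cause of these changes was not tested. The lists of copper, P-type ATPase and neighbouring genes were not run. Counts of 46 to 150 by day in DCN, Sham and Control limit the precision of their levels.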
